A study of Mus musculus with 12 samples.

Results

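Dendritic cells grown from the marrow of BALB/c mice were compared with those of BL6 mice in cultures without LPS. The comparison took all arrays titled control, RA or Ro without LPS, 3 from BALB/c and 3 from BL6, which are 6 of the 12 arrays of the series. Marrow cells of mice aged 6 to 8 weeks had been cultured for 10 days with GM-CSF at 20 ng/ml, the growth factor that all groups shared. Within each strain, 1 array held cells without retinoid, 1 held cells given all-trans retinoic acid (RA, 10 nmol per ml per the labels) and 1 held cells given the antagonist Ro41-5253 (Ro, 100 nmol per ml per the labels), each from the start of culture. Strains were therefore paired by retinoid condition. The other 6 arrays repeat the design with LPS at 1 ug/ml and served here to see whether a strain difference was also present, or changed, with LPS. No genotype, transgene or sorted fraction is named in the labels, so that a culture holds whatever cells grew in it. In such bulk RNA, fewer cells of a type and less RNA per cell cannot be told apart.

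Inbred strains carry fixed alleles, and BALB/c and C57BL/6 mice are the textbook pair of strains with unlike helper T cell and macrophage responses. They also carry different haplotypes of the major histocompatibility complex (MHC), whose class II molecules present peptides from dendritic cells to helper T cells. GM-CSF cultures of marrow give a mixture of dendritic cells, macrophages and granulocytes. RA acts through nuclear receptors that switch genes on, and Ro41-5253 blocks the alpha form of the RA receptor.

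All values below are the deposited signals of single arrays in the order no retinoid, RA and Ro. A probe set is a group of short probes on the array that reports 1 transcript, and a gene with several is represented by the tested probe set of highest mean, to which any statement on the gene's call refers unless another is named. Differences are BALB/c minus BL6 on the scale log2(signal + 16), with the standard error of the fit after the plus-minus sign, and are given relative to the median difference of all tested probe sets, which was 0.29 at the deposited scaling. The adjusted p belongs to the unshifted difference at that scaling, from limma with Benjamini-Hochberg adjustment over all tested probe sets. A gene is therefore called higher in a strain here only if its adjusted p lay below 0.05 in the same direction both at the deposited scaling and after quantile normalization. Folds were computed from the relative differences. No fold is given where the mean of a strain, or more than 1 of its arrays, lay below 41.8, the highest of the 6 array medians, called background here. The size of such a difference depends on the added 16, and so in part does a fold where 1 array lay below.

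The signals of each array had medians between 26.6 and 41.8. The BALB/c arrays had the higher median in each retinoid condition, and the median strain difference was 0.37 without retinoid, 0.36 with RA and 0.16 with Ro. In a principal component analysis of the 6 arrays, the first component (51.6% of the variance) placed BALB/c at -33.6, -23.0 and -77.8 and BL6 at 64.8, 76.0 and -6.40, so that the BL6 array with Ro lay nearest to BALB/c. Itgax, the integrin subunit CD11c of dendritic cells, read 6159, 3441 and 5279.7 in BALB/c and 4671, 2975 and 4284 in BL6, with the strains overlapping. Cd74, the invariant chain that accompanies MHC class II, read 13878, 14178 and 13991 in BALB/c and 14239, 13661 and 14083 in BL6, near equal throughout. Flt3, a receptor of conventional dendritic cells, read 59.2, 5.77 and 101 in BALB/c and 68.1, 51.5 and 37.7 in BL6. Of 11 markers of plasmacytoid dendritic cells on the array, 8 were tested, and only Ccr9 and Ly6d were at background on all 6. The summed signal of the 11 was 4079 to 5846 in BALB/c and 4026 to 5127 in BL6. Macrophage and granulocyte genes were detected beside those of dendritic cells: Csf1r read 10415, 10905 and 10051 in BALB/c and 10326, 10872 and 9236 in BL6, and S100a8 5492, 13426 and 3565 in BALB/c and 5431, 8812 and 10297 in BL6. The sex-linked genes Eif2s3y, Kdm5d and Uty, which lie on the Y chromosome, were detected on all 6 arrays without a call between the strains, while Xist was at background.

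Of 23053 tested probe sets, 7829 were called at the deposited scaling (34.0% of those tested), 6723 higher in BALB/c and 1106 higher in BL6. After quantile normalization 5532 were called (24%), 2785 higher in BALB/c and 2747 in BL6, so that the share of calls higher in BALB/c moved from 85.9% to 50.3%. By gene, 3276 of 10724 were higher in BALB/c at the deposited scaling (30.5%) and 566 in BL6 (5.28%), against 1285 (12%) and 1432 (13.4%) after quantile normalization. Called at both scalings were 1280 genes higher in BALB/c (11.9%) and 560 higher in BL6 (5.22%). Differences over 1 on the log2 scale were found for 243 of the former and 320 of the latter, over 2 for 45 and 46, and over 3 for 16 and 14. Across probe sets, which are not independent replicates, the 3 differences correlated with r = 0.75 between no retinoid and RA, 0.68 between no retinoid and Ro and 0.63 between RA and Ro.

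Many of these calls were lost when certain single arrays were left out. An array left out also leaves its partner without weight in the difference, so fewer pairs and residual degrees of freedom remain. How far lost calls reflect this lower precision was not tested. When each array was left out in turn, an alternative chosen after seeing the data, the genes called at both scalings fell to 382 in BALB/c and 321 in BL6 without the BALB/c array that had no retinoid, and to 356 and 291 without its BL6 partner. Without the RA arrays they were 478 and 305 (BALB/c array) or 559 and 290 (BL6 array), and without the Ro arrays 1224 and 527 or 1308 and 532. The fit that ignored the pairing by retinoid condition, without the block, called only 421 genes at the deposited scaling in place of 3842, and it ended 126 of the 171 calls among the genes examined by name. Of the genes named below, the calls of H2-Ea, Ifi202b, Ifi44l, Pdxdc1, Plau, Ctse, Atp6v0e2, F2r, Tmem87a, Msh5, Gbp2b, Ang, Trim12a, Rpgrip1, Marco, Gstm2, Otud3, Trim34a, Isoc2b, Trim5, Fblim1 and Cyp4a12a held in every setting in which they were tested, of 15 tried. So did those of Pdia3, Oasl1, Irf7, Dhx58, Usp18, Gbp2, Il18, Il1b, Cxcl3, Cxcl12, Arg2, Ncf4, Rara, Gsr, Glo1, Slc2a1, Atp5a1, Xbp1, Cd300ld, Treml2 and Pecam1. For single genes, here and below, the fits with an array left out were read at the deposited scaling only. A gene that kept its call there may have lost it at both scalings. Counts of list members with an array left out are at both scalings.

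H2-Ea had the largest difference of all named genes. It encodes the alpha chain of the class II molecule I-E, which mice of the MHC haplotype b, such as C57BL/6, are known not to make. Its signals were 10768, 10215 and 11444 in BALB/c and 32.1, 14.2 and 239 in BL6. Every BALB/c array lay far above every BL6 array, of which only that with Ro exceeded background, and the difference was 6.94 ± 0.46 (adjusted p = 8.53e-05 in limma). A second probe set of the gene gave 7.33.

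Interferon-related genes followed. Ifi202b, a DNA-binding member of the PYHIN family, read 2613, 2780.2 and 1321 in BALB/c and 6.14, 1.09 and 1.34 in BL6, at background in BL6 throughout (6.54 ± 0.22, adjusted p = 4.68e-06 in limma). Ifi44l, an interferon stimulated gene, read 1534, 1706 and 892 in BALB/c and 1.25, 3.12 and 12.4 in BL6 (5.70 ± 0.29), and its other probe set gave 5.88. Gbp2b, a guanylate-binding protein induced by interferon gamma, read 3090.1, 1721 and 2746 in BALB/c and 212, 216 and 109 in BL6 (3.42 ± 0.26, 10.7-fold). For none of these 3 genes did the strains overlap. Ifi202b has near-identical neighbours in its family, so that its probes may also read those.

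Genes of proteases and their receptors were also among the 12 largest differences higher in BALB/c. Ctse, the endosomal protease cathepsin E, read 3387, 3099 and 1929 in BALB/c and 130.5, 77.2 and 69.2 in BL6 (4.41 ± 0.17, 21.3-fold, adjusted p = 7.40e-06 in limma). Plau, the urokinase plasminogen activator, read 874, 1789.8 and 476 in BALB/c and 6.23, 17.8 and 23.7 in BL6 (4.61 ± 0.36). F2r, the thrombin receptor, read 423, 1363 and 1399.7 in BALB/c and 11.4, 22.2 and 179 in BL6 (3.72 ± 0.36). Its BL6 signal was above background only with Ro, and the lowest BALB/c array still lay above it. Hal, the histidine-degrading enzyme histidase, read 1203, 1472 and 126 in BALB/c and 50.3, 53.9 and 15.2 in BL6 (3.31 ± 0.38), where the BALB/c array with Ro was the lowest of its strain and yet above all BL6 arrays.

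The remaining 4 genes of the 12 were Pdxdc1 (4.95 ± 0.16), Atp6v0e2, a subunit of the proton pump of endosomes (3.81 ± 0.18), Tmem87a (3.71 ± 0.23) and Msh5, a gene of meiotic recombination that lies within the MHC (3.62 ± 0.18). In BL6 all 4 were at background on every array. A second probe set of Msh5 gave 1.11.

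**Figure D1:**
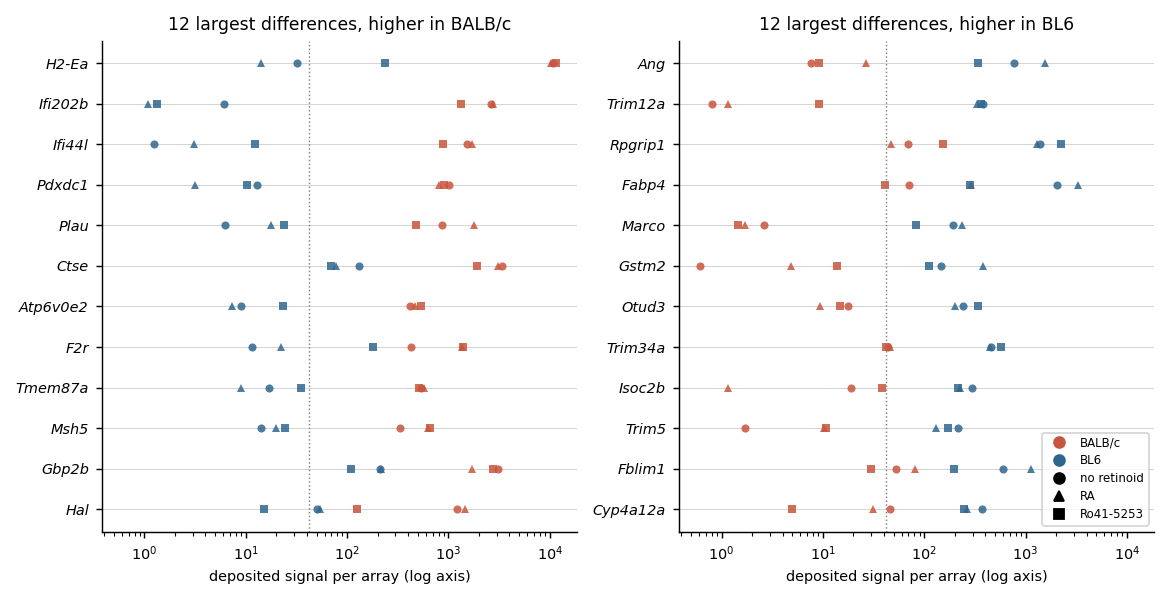
Deposited signal (log axis) of the 12 genes with the largest differences higher in BALB/c (left) and in BL6 (right), 1 symbol per array, with colour for strain and shape for retinoid condition; the dotted line marks 41.8, the highest array median. H2-Ea lay between 10215 and 11444 on the BALB/c arrays and at 239 or less on those of BL6, and the 2 colours are separate in every row except Fabp4, where the BL6 array with Ro met the BALB/c array with RA.

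Among genes higher in BL6, Ang, the gene of the ribonuclease angiogenin, had the largest difference (-4.98 ± 0.27, adjusted p = 5.71e-05 in limma). It read 7.67, 26.8 and 9.12 in BALB/c and 764, 1547 and 338 in BL6, and its other probe sets gave -3.51 and -2.01. Rpgrip1, known from photoreceptor cilia, read 68.5, 46.8 and 154 in BALB/c and 1392, 1294 and 2231 in BL6 (-4.35 ± 0.17, 20.4-fold), although a second and dimmer probe set of the gene gave -0.55 without a call. In neither gene did the strains overlap.

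Macrophage genes stood among these differences too. Marco, a scavenger receptor for bacteria and particles, read 2.63, 1.69 and 1.44 in BALB/c and 193, 237 and 83 in BL6 (-3.57 ± 0.28) and was at background in BALB/c. Fabp4, the fatty acid binding protein of fat cells and macrophages, read 70.9, 289 and 40.8 in BALB/c and 2067, 3280.4 and 282 in BL6 (-3.76 ± 0.35, 13.6-fold), and its other probe set gave -2.91. Within each retinoid condition Fabp4 was higher in BL6, but the BL6 array with Ro (282) lay below the BALB/c array with RA (289). Fblim1, an adaptor of cell adhesion, read 52.8, 81.4 and 30.1 in BALB/c and 597, 1143 and 197 in BL6 (-3.27 ± 0.25, 9.66-fold), and its other probe set gave -3.36.

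Enzyme genes made up much of the rest. Gstm2, a glutathione transferase, read 0.617, 4.83 and 13.8 in BALB/c and 145, 382 and 112 in BL6 (-3.51 ± 0.36), and Cyp4a12a, a cytochrome of fatty acid oxidation, read 46.4, 31.4 and 5.0 in BALB/c and 373, 264 and 245 in BL6 (-3.24 ± 0.24). Both belong to families with near-identical members. Otud3, a deubiquitinating enzyme (-3.48 ± 0.19), and Isoc2b (-3.32 ± 0.31) were at background on every BALB/c array, and a second probe set of Otud3 gave -1.23. The other 3 of the 12 were TRIM genes and are described with the interferon-related families.

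In the MHC class II list, 3 of 10 tested genes were higher in BALB/c and none in BL6, with a median difference of -0.04 against 0.00 over all tested genes. Beside this and each later list count stand the shares of all tested genes, 11.9% higher in BALB/c and 5.22% higher in BL6. H2-Ob, a chain of the modulator H2-O, read 306, 74.9 and 1521 in BALB/c and 83.9, 26.1 and 521 in BL6 (1.14 ± 0.17, 2.21-fold). Ciita, the coactivator that switches class II genes on, read 926, 449.8 and 2903 in BALB/c and 660.0, 173 and 1712 in BL6 (0.55 ± 0.18, 1.47-fold). For both genes the order of the retinoid conditions was the same in each strain, and values of different conditions overlapped. Ciita lost its call without an RA array (adjusted p = 0.064 to 0.0671 in limma) and under median scaling (0.0506). Its other probe sets gave 0.58 and 0.53 and were called at the deposited scaling only.

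By their brightest probe sets the classical class II chains other than H2-Ea were not called at both scalings. H2-Aa read 12001, 12768 and 12188 in BALB/c and 12051, 9163 and 11899.6 in BL6 (-0.12 ± 0.10, adjusted p = 0.227 in limma), H2-Ab1 10631, 10276 and 11840.5 in BALB/c and 10806, 7047 and 11565 in BL6 (-0.11 ± 0.11), and H2-Eb1, the beta chain that pairs with the H2-Ea product, 12848, 11466 and 14081 in BALB/c and 11745, 6821 and 13072 in BL6 (0.03 ± 0.12). In each the lowest array was that of BL6 with RA. Other probe sets of H2-Aa were called in opposite directions, 1 higher in BALB/c (0.41 ± 0.15) and a dimmer one higher in BL6 (-2.65 ± 0.25). H2-DMb2, a chain of the peptide editor H2-M, gave 0.71 ± 0.29 with adjusted p = 0.0301 at the deposited scaling and 0.0514 after quantile normalization, and its other probe sets were called higher in BALB/c (2.01 ± 0.22 and 0.51 ± 0.14). H2-DMa (-0.31 ± 0.12), H2-Oa (-0.40 ± 0.15) and Cd74 (-0.29 ± 0.06) were not called at both scalings either.

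Of 13 tested genes that prepare peptides for class I molecules, 5 were higher in BALB/c and none in BL6 (median 0.01). Tap2, a subunit of the peptide transporter, read 1189, 977 and 2352 in BALB/c and 374, 353 and 987 in BL6 (1.14 ± 0.15, 2.20-fold), and Pdia3, a chaperone of class I loading, read 5418, 6602 and 6317 in BALB/c and 2268, 2614 and 3187 in BL6 (0.89 ± 0.11, 1.86-fold). The Pdia3 strains did not overlap. Tap1, the partner of Tap2, was at 0.03 and the immunoproteasome subunits Psmb8, Psmb9 and Psmb10 at -0.20, 0.01 and -0.18, all without a call. Erap1 (0.69 ± 0.17), which trims peptides, lost its call without the BL6 array with RA (adjusted p = 0.05001 in limma). A second and dimmer probe set of Erap1 gave 0.01 without a call. The small differences of Calr (0.18 ± 0.11) and Tapbp (0.12 ± 0.10) were lost without any single one of the arrays with RA or without retinoid (adjusted p up to 0.115 and 0.197) and under median scaling (0.228 and 0.426). A dimmer probe set of Tapbp gave 2.06 ± 0.14, called higher in BALB/c. With each array left out in turn, 2 to 4 members of this list were called higher in BALB/c.

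In the list of class I genes themselves, 1 of 8 was higher in BALB/c and 1 in BL6. H2-T24, a nonclassical class I gene, read 245, 291 and 92.7 in BALB/c and 69.8, 82.9 and 26.8 in BL6 (1.23 ± 0.17, 2.35-fold). Cd1d1, which presents lipids to natural killer T cells, had -0.76 ± 0.15 and lost its call without any single one of the arrays with RA or without retinoid (adjusted p from 0.132 to 0.22). H2-D1 is described with the probe sets below, since its probe sets gave opposite pictures.

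The largest shift of any antiviral list was that of interferon stimulated genes. Of 40 tested members 18 were higher in BALB/c and none in BL6, against 11.9% and 5.22% of all tested genes, and the median difference was 0.59. Irf7, the transcription factor that amplifies interferon production, read 937, 845 and 462 in BALB/c and 158, 205 and 146 in BL6 (1.70 ± 0.20, 3.24-fold, adjusted p = 6.46e-04 in limma). Oasl1, of the oligoadenylate synthetase family, read 361, 423 and 247 in BALB/c and 74.4, 59.1 and 57.7 in BL6 (1.86 ± 0.18, 3.62-fold). In both genes the lowest BALB/c array lay above the highest BL6 array.

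Sensors and regulators of the same list were higher in BALB/c as well. Dhx58, a regulator of RNA sensing, read 546, 631 and 598 in BALB/c and 193, 223 and 159 in BL6 (1.27 ± 0.16, 2.41-fold), and Usp18, a brake on interferon receptor signalling, read 1761, 2329 and 1744 in BALB/c and 431, 593 and 1074 in BL6 (1.25 ± 0.25, 2.38-fold). Stat2 (0.68 ± 0.16) and Irf9 (0.61 ± 0.15), parts of the factor that interferon receptors activate, were higher in BALB/c, as were Eif2ak2 (0.87 ± 0.16), Ddx58 (0.92 ± 0.19) and Ifit2 (0.97 ± 0.27). Other members showed no call at both scalings, among them Mx1 at 0.12, Isg20 at 0.65, Cxcl10 at 0.02 and Rsad2 at -0.23. The summed signal of the list was 64022, 69380.5 and 49439 in BALB/c and 37422, 42291 and 40367 in BL6. With each array left out in turn, 6 to 25 members were called higher in BALB/c, 6 without either array that had no retinoid and 9 or 13 without an RA array.

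Interferon-induced GTPases were split. Of 10 tested members, 3 were higher in BALB/c and 2 in BL6. Against Gbp2b stood Gbp2, a close relative whose probes may read both genes, with 1029, 651 and 599 in BALB/c and 3172, 1912 and 1770.1 in BL6 (-1.85 ± 0.13, 3.61-fold higher in BL6). The lowest BL6 array lay above the highest BALB/c array, and its other probe set gave -1.73. Igtp (0.56 ± 0.16) lost its call without an RA array (adjusted p = 0.0571 to 0.0582 in limma). Gbp7 (0.50 ± 0.16) was the third member higher in BALB/c, and Gbp8 (-0.85 ± 0.16), the other higher in BL6, lost its call without any single one of the arrays with RA or Ro (adjusted p up to 0.154). With each array left out in turn, 1 to 5 members were called higher in BALB/c and 1 to 2 in BL6.

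The TRIM list, of genes for ubiquitin ligases with antiviral roles, had 4 of 11 members higher in BL6 and none in BALB/c. Trim12a read 0.808, 1.15 and 9.08 in BALB/c and 383, 334 and 359.9 in BL6 (-4.57 ± 0.20, adjusted p = 2.20e-05 in limma), Trim34a 43.6, 45.6 and 42.2 in BALB/c and 456, 446 and 573 in BL6 (-3.37 ± 0.17, 10.3-fold) and Trim5 1.69, 10.4 and 10.8 in BALB/c and 218, 132 and 173 in BL6 (-3.31 ± 0.26). No BALB/c array reached a BL6 array in any of the 3. These genes are neighbours on chromosome 7 in the RefSeq annotation of GRCm38.p6 and have close relatives there, of which Trim12c was at 0.27 and Trim30a at -0.05 without a call at both scalings. Trim30d (-1.37 ± 0.32) lost its call without an RA array (adjusted p = 0.11 to 0.114). A second probe set of Trim12a gave -1.10, while that of Trim34a had the opposite sign (1.16, called higher in BALB/c).

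Promoter sequences of the 4 interferon-related genes of largest difference, 2 of which hold a match to the interferon-stimulated response element and 2 of which do not, show what the annotation has around their starts. Each runs from 250 bases before to 50 after the start of the gene, 5′ to 3′ on the gene's strand, from RefSeq on GRCm38.p6, which is the genome of a C57BL/6 mouse. Capitals mark a match to GAAA, then any 2 bases, then GAAA, here on the opposite strand, which starts at base 114 in Gbp2b and at base 261 in Trim12a counted from the 5′ end, the latter after the start of the gene.
Gbp2b, chr3:142594597-142594896, plus strand: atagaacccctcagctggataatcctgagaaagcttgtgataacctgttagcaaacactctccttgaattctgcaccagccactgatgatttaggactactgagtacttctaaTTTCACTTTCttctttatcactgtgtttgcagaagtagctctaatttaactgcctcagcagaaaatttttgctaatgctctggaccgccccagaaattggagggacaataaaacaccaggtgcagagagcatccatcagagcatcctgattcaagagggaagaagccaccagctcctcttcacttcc
Trim12a, chr7:104315446-104315745, minus strand: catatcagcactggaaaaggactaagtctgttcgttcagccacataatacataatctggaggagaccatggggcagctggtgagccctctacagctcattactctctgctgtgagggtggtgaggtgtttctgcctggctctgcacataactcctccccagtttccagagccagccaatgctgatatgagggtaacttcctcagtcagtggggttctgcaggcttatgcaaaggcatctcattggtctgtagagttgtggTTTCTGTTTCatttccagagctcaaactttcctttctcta
Ifi202b, chr1:173982795-173983094, minus strand: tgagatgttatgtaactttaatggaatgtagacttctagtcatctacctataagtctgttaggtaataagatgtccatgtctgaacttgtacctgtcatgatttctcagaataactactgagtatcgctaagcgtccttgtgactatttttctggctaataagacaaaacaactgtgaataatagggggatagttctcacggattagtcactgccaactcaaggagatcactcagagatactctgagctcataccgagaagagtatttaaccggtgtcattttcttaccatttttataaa
Ifi44l, chr3:151762842-151763141, minus strand: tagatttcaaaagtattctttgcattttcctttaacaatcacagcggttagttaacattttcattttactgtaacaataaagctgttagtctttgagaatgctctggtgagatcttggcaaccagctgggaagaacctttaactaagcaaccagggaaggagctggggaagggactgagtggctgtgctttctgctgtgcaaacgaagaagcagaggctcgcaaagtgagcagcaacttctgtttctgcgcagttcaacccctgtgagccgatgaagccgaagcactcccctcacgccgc

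On either strand, that motif occurred in 1131 of 32851 promoters of this length (3.44%) and in those of 331 of 8770 tested genes with an entry (3.77%). Among genes called at both scalings with a difference over 1, it occurred in 8 of 195 higher in BALB/c (4.10%) and in 18 of 259 higher in BL6 (6.95%). The related element of interferon regulatory factors and PU.1, GGAA, then any 2 bases, then GAAA, which differs from the first at 1 base, occurred in 2.72% of all promoters, 3.07% of those of tested genes, 1.54% of those higher in BALB/c and 4.63% of those higher in BL6. A match is a run of letters in the BL6-type reference, and BALB/c sequence was not used here. H2-Ea was named without a promoter.

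In the PYHIN family of DNA sensors, 2 of 7 tested genes were higher in BALB/c and 1 in BL6. Beside Ifi202b, Mndal read 4108, 4275 and 5726 in BALB/c and 2678, 2459.8 and 1955 in BL6 (0.69 ± 0.17, 1.61-fold), with every BALB/c array above every BL6 array, but its call was lost under median scaling (adjusted p = 0.0533). Aim2, the inflammasome sensor of cytosolic DNA, read 69.8, 39.3 and 73 in BALB/c and 109, 104 and 128 in BL6 (-1.08 ± 0.19, 2.11-fold higher in BL6), again without overlap. It lost its call without an RA array (adjusted p = 0.108 to 0.116 in limma). Ifi203, Ifi204, Ifi207 and Ifi209 lay between -0.22 and -0.01 without a call by their brightest probe sets, while a second probe set of Ifi209 gave -2.99.

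Receptors of the natural killer gene complex gave 2 of 10 members higher in BALB/c and 1 in BL6. Klrb1a read 567, 482 and 169 in BALB/c and 215, 74 and 35.6 in BL6 (1.59 ± 0.22, 3.01-fold), higher in BALB/c within each condition. Klra17, an inhibitory lectin-like receptor, read 45.3, 61.4 and 23.7 in BALB/c and 442, 359 and 34.4 in BL6 (-2.14 ± 0.42, 4.39-fold higher in BL6), with a small difference in the Ro pair. Klra17 and Klrb1f (0.95 ± 0.30) lost their calls without an RA array (adjusted p = 0.0951 to 0.115). The Klra family differs between mouse strains in gene number, and probes may read several members of a family.

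SLAM receptors, which leukocytes use to adhere to and signal to each other, had 3 of 9 members higher in BL6 and none in BALB/c (median -0.65). Cd84 read 1835, 1960.4 and 792 in BALB/c and 4788, 4296 and 1770.2 in BL6 (-1.51 ± 0.12, 2.85-fold), Cd48 2094, 1810.2 and 4108 in BALB/c and 3898, 3544 and 4789.6 in BL6 (-0.99 ± 0.15, 1.98-fold) and Slamf7 289, 30.8 and 491 in BALB/c and 528, 251 and 793 in BL6 (-1.63 ± 0.33, 3.10-fold). Each was higher in BL6 within every condition. The calls of Cd48 and Slamf7 were lost without an RA array at the deposited scaling (adjusted p = 0.0546 to 0.0801 in limma). At both scalings, only 1 member was called without any single one of the arrays with RA or without retinoid, and 3 without either Ro array.

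Among Fc receptors, which bind antibodies, 3 of 8 were higher in BL6 and 1 in BALB/c (median -0.41). Fcgr2b, the inhibitory receptor for IgG, read 4632, 5094 and 1923 in BALB/c and 7789.7, 7682 and 5232 in BL6 (-1.22 ± 0.16, 2.33-fold), Fcgr3, an activating one, 4725, 7339.6 and 3847 in BALB/c and 7260.1, 8607 and 5856 in BL6 (-0.78 ± 0.10, 1.71-fold) and Fcer1g, their shared signalling chain, 7222, 8619 and 5617 in BALB/c and 9291, 10456 and 8544 in BL6 (-0.71 ± 0.09, 1.63-fold). All 3 were higher in BL6 within each condition. The call of Fcer1g was lost without the filter on dim probe sets (adjusted p = 0.0604 in limma) and without the intensity trend (0.0781). That of Fcgr3 was lost without either array that had no retinoid (adjusted p = 0.0677 and 0.0772), and so was that of Fcgrt, the neonatal Fc receptor (0.25 ± 0.10 higher in BALB/c), which was also lost under median scaling (0.124). Fcgr1, the high-affinity receptor, was at 0.26 without a call.

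Of 21 Toll-like and NOD-like receptor genes, 1 was higher in BALB/c and 2 in BL6. Ly96, the partner of Tlr4 in sensing LPS, read 316, 249 and 189.8 in BALB/c and 472, 588 and 433 in BL6 (-1.25 ± 0.18, 2.38-fold higher in BL6), and Cd14, which hands LPS to them, read 5025, 4849.8 and 3706 in BALB/c and 3998, 2315 and 1207 in BL6 (0.71 ± 0.21, 1.63-fold higher in BALB/c). Both lost their calls without an RA array (adjusted p = 0.0588 to 0.0668), and Cd14 also did under median scaling (0.0789). Tlr4 itself had 0.59 ± 0.17 with adjusted p = 0.00841 at the deposited scaling and 0.0597 after quantile normalization. Its other tested probe sets gave -0.38 and -0.02 without a call. Pycard, the adaptor of inflammasomes (-0.70 ± 0.10), lost its call without either array that had no retinoid (adjusted p up to 0.176).

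C-type lectins gave 2 of 21 members higher in BL6 and none in BALB/c (median -0.40). Clec4a3 read 1586, 973 and 762 in BALB/c and 3559, 1389 and 1585 in BL6 (-1.20 ± 0.16, 2.29-fold). Clec10a (-0.73 ± 0.14) lost its call without any single one of the 6 arrays (adjusted p from 0.0553 to 0.146). Mrc1, the mannose receptor, read 3496, 3328 and 338 in BALB/c and 4057, 5231 and 2077 in BL6 (-1.44 ± 0.38) with adjusted p = 0.0479 at the deposited scaling and 0.063 after quantile normalization. Cd209c read 970.0, 1270.0 and 1295 in BALB/c and 149, 229.7 and 1466 in BL6, where BL6 was low without retinoid and with RA but not with Ro, and it was not called at both scalings.

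In the cytokine list, Ltb encodes lymphotoxin beta and lies within the MHC. It read 1642, 1538 and 6503 in BALB/c and 93.8, 103 and 1259 in BL6 (3.03 ± 0.28, 8.18-fold, adjusted p = 3.26e-04 in limma). Every BALB/c array lay above every BL6 array, and both strains were highest with Ro. Il1b, the gene of interleukin 1 beta, read 1032, 444 and 574 in BALB/c and 187, 128 and 181 in BL6 (1.58 ± 0.19, 3.0-fold), and Il1rn, its receptor antagonist, 2349.9, 3646 and 1196 in BALB/c and 741, 974 and 498 in BL6 (1.30 ± 0.16, 2.46-fold). Both were higher in BALB/c without overlap.

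In the other direction, Il18, a cytokine released through inflammasomes, read 188, 152 and 173 in BALB/c and 507, 389 and 442 in BL6 (-1.60 ± 0.15, 3.02-fold higher in BL6), without overlap. Il12b, the shared subunit of interleukins that drive helper T cells, read 81.7, 24.5 and 171 in BALB/c and 264, 72.2 and 450.4 in BL6 (-1.62 ± 0.17, 3.07-fold higher in BL6), with the RA array lowest in each strain. In all, 5 of 17 tested cytokine genes were higher in BALB/c and 3 in BL6. Tnf (0.59 ± 0.22) and Il6 (-0.49 ± 0.44) were not called at both scalings, and Il10, Il12a, Il23a, Csf3 and Ifnb1 were at background on all 6 arrays.

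Chemokine genes gave 5 of 22 members higher in BALB/c and 1 in BL6. Ccl24, an attractant of eosinophils, read 436, 2463 and 99.3 in BALB/c and 72.5, 475 and 11.5 in BL6 (1.96 ± 0.16, 3.89-fold), Cxcl14 657, 1929 and 12.9 in BALB/c and 98.4, 285 and 0.573 in BL6 (1.72 ± 0.34, 3.30-fold) and Cxcl3, an attractant of neutrophils, 615, 354 and 175 in BALB/c and 61.9, 82.8 and 59.9 in BL6 (1.79 ± 0.29, 3.46-fold). Ccl24 and Cxcl14 were highest with RA and lowest with Ro in both strains, so that conditions overlapped between strains while every pair had BALB/c above BL6. Both Cxcl14 arrays with Ro were at background, so that pair carries no strain comparison although it enters the fold. Cxcl12, the ligand of Cxcr4, read 195, 91.5 and 182 in BALB/c and 16.7, 34.1 and 45.7 in BL6 (1.53 ± 0.29). Ccl8, an attractant of monocytes, read 31.6, 120.3 and 25.3 in BALB/c and 88.1, 248 and 139 in BL6 (-1.62 ± 0.22, higher in BL6).

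Of 9 chemokine receptor genes, 2 were higher in BALB/c. Ccr6, the receptor of Ccl20, read 258, 152 and 1445 in BALB/c and 27.7, 13.6 and 134 in BL6 (2.52 ± 0.19, adjusted p = 1.26e-04 in limma). The Ro array was the highest in each strain. Cx3cr1, the fractalkine receptor of monocytes, read 183, 229.6 and 153 in BALB/c and 92, 72.8 and 11 in BL6 (1.37 ± 0.30, 2.59-fold), without overlap and with the widest gap in the Ro pair. Ccr7, which guides dendritic cells to lymph nodes, read 3397, 534 and 6034 in BALB/c and 2647, 830.1 and 5347 in BL6 (-0.32 ± 0.19) and was not called, nor was Ccr2 (-0.05 ± 0.15).

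Complement and coagulation genes were spread over both directions, with 5 of 21 higher in BALB/c and 3 in BL6. Beside Plau, its inhibitor gene Serpinb2 read 1066, 1630.2 and 303 in BALB/c and 76.1, 274 and 152 in BL6 (2.03 ± 0.41, 4.10-fold), and C5ar1, the receptor of the complement fragment C5a, read 675, 1233 and 261 in BALB/c and 91.3, 297 and 63.9 in BL6 (1.87 ± 0.20, 3.65-fold). F7, coagulation factor VII, read 1481, 738 and 204 in BALB/c and 3512, 2182 and 1135 in BL6 (-2.02 ± 0.21, 4.04-fold higher in BL6). Each of these genes had the same direction in all 3 pairs. C1ra (1.51 ± 0.40), a complement protease, differed by 2.14, 2.23 and 0.15 in the 3 pairs and lost its call without an RA array (adjusted p = 0.0978 to 0.1). Plaur, the receptor of urokinase, was at -0.67 without a call at both scalings.

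Genes of alternative activation, the state that interleukin 4 induces in macrophages, were also split, with 5 of 22 higher in BALB/c and 3 in BL6. Alox15, a lipoxygenase, read 343, 668 and 1324 in BALB/c and 22.8, 39.7 and 629 in BL6 (2.33 ± 0.42, higher in BALB/c), while Klf4, a transcription factor of monocytes, read 1121, 379 and 429 in BALB/c and 3414, 1937 and 849 in BL6 (-1.91 ± 0.23, 3.77-fold higher in BL6). Il4ra, the interleukin 4 receptor, was higher in BL6 (-0.96 ± 0.19). Retnla read 12521, 9404 and 755 in BALB/c and 4558, 5599 and 4.95 in BL6, with the BL6 array with Ro at background, and Chil3 1885, 7089 and 817 in BALB/c and 5182, 6222 and 4659 in BL6. Neither Retnla (2.17 ± 0.70) nor Chil3 (-1.54 ± 0.40) was called at both scalings, and Arg1 was at -0.40 without a call.

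Among genes of nitric oxide, itaconate and oxygen radicals, 6 of 14 were higher in BALB/c and 1 in BL6. Arg2, the mitochondrial arginase, read 1312, 868 and 445 in BALB/c and 108, 70.6 and 158 in BL6 (2.43 ± 0.36, 5.40-fold), and Ncf4, a subunit of the phagocyte oxidase, read 3608, 5454 and 4980.3 in BALB/c and 1519, 1838 and 2401 in BL6 (0.99 ± 0.13, 1.98-fold). Both showed no overlap between strains. Acod1, the enzyme that makes itaconate (1.26 ± 0.30), lost its call without an RA array (adjusted p = 0.0676 to 0.0695), and Hmox1, heme oxygenase (-1.0 ± 0.16 higher in BL6), without any single one of the arrays with RA or without retinoid (adjusted p up to 0.104). Nos2, the inducible nitric oxide synthase, was at background on all 6 arrays.

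Rara, the gene of the retinoic acid receptor that Ro41-5253 blocks, was higher in BALB/c in each condition. It read 170.1, 195 and 282 in BALB/c and 34.8, 49.5 and 80.5 in BL6 (1.44 ± 0.16, 2.70-fold, adjusted p = 5.37e-04 in limma), without overlap. Aldh1a2, which makes retinoic acid in dendritic cells, read 1606, 1291 and 1011 in BALB/c and 1059.7, 591 and 506 in BL6 (0.60 ± 0.15, 1.51-fold), and Tgm2, a transglutaminase known as a target of RA, read 4248, 5746 and 3335 in BALB/c and 1831, 3278 and 2280.0 in BL6 (0.56 ± 0.14, 1.47-fold). Rdh11 (0.52 ± 0.16), which reduces retinal, lost its call without an RA array (adjusted p = 0.0582 to 0.059). Fabp5, a fatty acid binding protein that also carries RA, read 7831, 10507 and 7435 in BALB/c and 11726, 13081 and 11120.3 in BL6 (-0.79 ± 0.08, 1.72-fold higher in BL6). Over the retinoid list, 4 of 14 genes were higher in BALB/c and 1 in BL6 around a median of 0.00, and Rarb (0.39), Rarg (-0.76), Rxra (-1.02) and Dhrs3 (-0.45) were not called at both scalings.

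Lipid handling genes were more often higher in BL6, with 6 of 26 tested members against 2 higher in BALB/c and a median of -0.41. Beside Fabp4 and Fabp5, Abcg1, a cholesterol exporter, read 3727, 2289.6 and 2015 in BALB/c and 5801, 4927 and 4326 in BL6 (-1.24 ± 0.12, 2.36-fold). Npc1, which moves cholesterol out of lysosomes, read 550.3, 561 and 377 in BALB/c and 763, 1179.9 and 653 in BL6 (-1.05 ± 0.16, 2.08-fold), and Lipa, the lysosomal acid lipase, 3820.3, 3414 and 2429 in BALB/c and 6194, 7082 and 2923 in BL6 (-0.96 ± 0.15, 1.95-fold). Every pair had BL6 above BALB/c in these 3 genes. Npc1 and Lipa lost their calls without an RA array (adjusted p = 0.0539 to 0.0885), and Pparg, the nuclear receptor of fat storage (-0.94 ± 0.17), without any single one of the arrays with RA or without retinoid (adjusted p up to 0.149). The genes higher in BALB/c were Fasn (0.63 ± 0.18) and Scd2 (0.36 ± 0.14 by its brightest probe set and 4.39 by another), both of fatty acid synthesis. Leaving out each array in turn left 0 to 3 members higher in BALB/c and 4 to 7 in BL6. Of 18 cholesterol synthesis genes none was called at both scalings, with 6 higher in BALB/c at the deposited scaling and 3 higher in BL6 after quantile normalization.

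Glutathione and detoxifying enzymes had 7 of 26 members higher in BL6 and 2 in BALB/c (median -0.34). Gstm1 read 956, 1222 and 269 in BALB/c and 2209.8, 3532 and 968 in BL6 (-1.79 ± 0.15, 3.47-fold higher in BL6), and Gsto1 (-1.12 ± 0.14), Gstt2 (-0.89 ± 0.19) and Gpx3 (-0.89 ± 0.17) shared the direction. Mgst1 (-1.25 ± 0.23) lost its call without an RA array (adjusted p = 0.0538 to 0.0576). Higher in BALB/c were Gsr, which regenerates glutathione, with 869.9, 1269 and 754 in BALB/c and 202, 238 and 182 in BL6 (1.81 ± 0.16, 3.52-fold, adjusted p = 1.88e-04 in limma), and Glo1, which clears methylglyoxal, with 1714, 2283 and 2049.5 in BALB/c and 623, 695 and 872 in BL6 (1.16 ± 0.14, 2.23-fold). The strains did not overlap for either. Leaving out each array in turn left 3 to 4 members called higher in BL6.

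Glycolysis genes gave 8 of 19 members higher in BALB/c and none in BL6, with a median of 0.13. The glucose transporter genes led the list. Slc2a1 read 1228, 1316 and 1159.9 in BALB/c and 548, 651 and 729 in BL6 (0.64 ± 0.15, 1.56-fold), Slc2a3 232, 409 and 698 in BALB/c and 62.1, 119 and 254 in BL6 (1.28 ± 0.15, 2.43-fold) and Slc2a6 1653, 983 and 1324 in BALB/c and 889.6, 354 and 453 in BL6 (0.98 ± 0.17, 1.98-fold). Slc2a1 and Slc2a6 showed no overlap between strains, while Slc2a3 did across conditions. Pfkl, of phosphofructokinase, was higher in BALB/c (0.58 ± 0.15), while Aldoa (-0.18) and Pgk1 (-0.24) were not called. Ldha counts among the 8 with a relative difference of -0.02, that is, it was called at both scalings at a difference close to that of the median probe set. Leaving out each array in turn left 3 to 7 members called.

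Genes of oxidative phosphorylation were called in both directions at small differences, 4 of 33 higher in BALB/c and 4 in BL6 (median -0.32). Over all tested genes the shares were 11.9% and 5.22%, so the BALB/c count is near that of any gene. Atp5a1, a subunit of the ATP synthase, read 6733, 7468 and 7441 in BALB/c and 4310.1, 4230.3 and 4768 in BL6 (0.41 ± 0.09, 1.33-fold), without overlap. Of the 4 higher in BL6, Ndufb3 (-0.72 ± 0.14) and Sdhb (-0.61 ± 0.10) lost their calls without any single one of the 6 arrays (adjusted p up to 0.303), and Uqcrb (-0.60 ± 0.09) and Cox6c (-0.55 ± 0.08) without any single one of the arrays with Ro or without retinoid (adjusted p up to 0.259). With each array left out in turn at most 1 member was higher in BL6. Among stress genes, 4 of 20 were higher in BALB/c and 1 in BL6. Xbp1, the transcription factor of the unfolded protein response, read 10591, 12061 and 11192 in BALB/c and 6096, 7041 and 8262 in BL6 (0.38 ± 0.09, 1.30-fold), again without overlap.

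Cell cycle genes had the largest share of members higher in BALB/c of the lists with at least 8 tested members, 21 of 38, with none higher in BL6 and a median of 0.71. Mki67, the marker of dividing cells, read 2239.9, 2261 and 2558 in BALB/c and 687, 894 and 1949 in BL6 (0.84 ± 0.23). Aurkb, a mitotic kinase, read 425, 530.3 and 643 in BALB/c and 154, 167 and 375 in BL6 (0.94 ± 0.19, 1.92-fold), Bub1, of the spindle checkpoint, 367, 445 and 587 in BALB/c and 76.4, 138 and 418 in BL6 (1.07 ± 0.28, 2.11-fold) and Mcm5, of the replicative helicase, 1422, 1979.9 and 2229 in BALB/c and 449, 659.9 and 1641 in BL6 (0.92 ± 0.23, 1.89-fold). In all 4 genes the BL6 array with Ro was the highest of its strain by a wide margin, whereas the BALB/c arrays lay closer together.

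The difference of this list was not of one size in the 3 pairs. Its median was 0.97, 0.95 and 0.15 in the pairs without retinoid, with RA and with Ro, 1 array against 1, and the summed signal of its members was 37028, 47216 and 54752 in BALB/c and 18669, 23619.8 and 48449 in BL6. Bub1 differed by 1.68, 1.22 and 0.32 in the 3 pairs. At both scalings, 33 of the 38 members were called higher in BALB/c without either Ro array. Without any single one of the arrays with RA or without retinoid only 1 was. Read at the deposited scaling alone, Bub1, Nusap1 (0.96 ± 0.24) and Mcm5 lost their calls without an RA array (adjusted p = 0.0604 to 0.0724 in limma). Whether the strain difference itself changes with the retinoid was not tested, with 1 array per strain and condition.

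**Figure D2:**
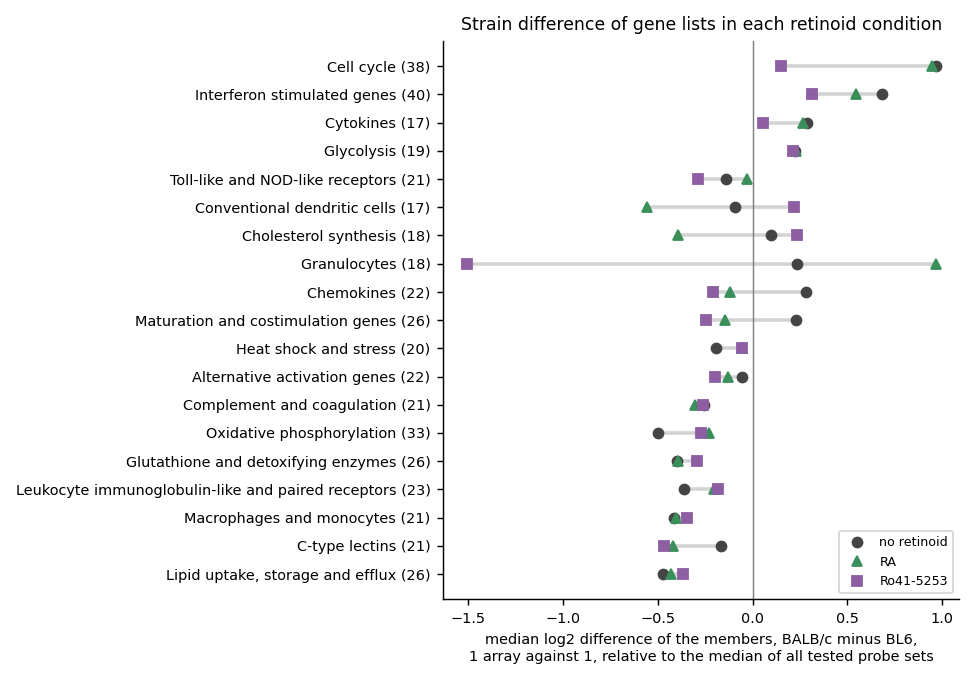
Median log2 difference of the tested members of each list with at least 15 of them (number in brackets), BALB/c minus BL6, in the pair without retinoid (circle), with RA (triangle) and with Ro (square), relative to the median of all tested probe sets. Cell cycle genes lay at 0.97 and 0.95 in the first 2 pairs and at 0.15 with Ro, while granulocyte genes ran from 0.97 with RA to -1.51 with Ro.

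**Figure D3:**
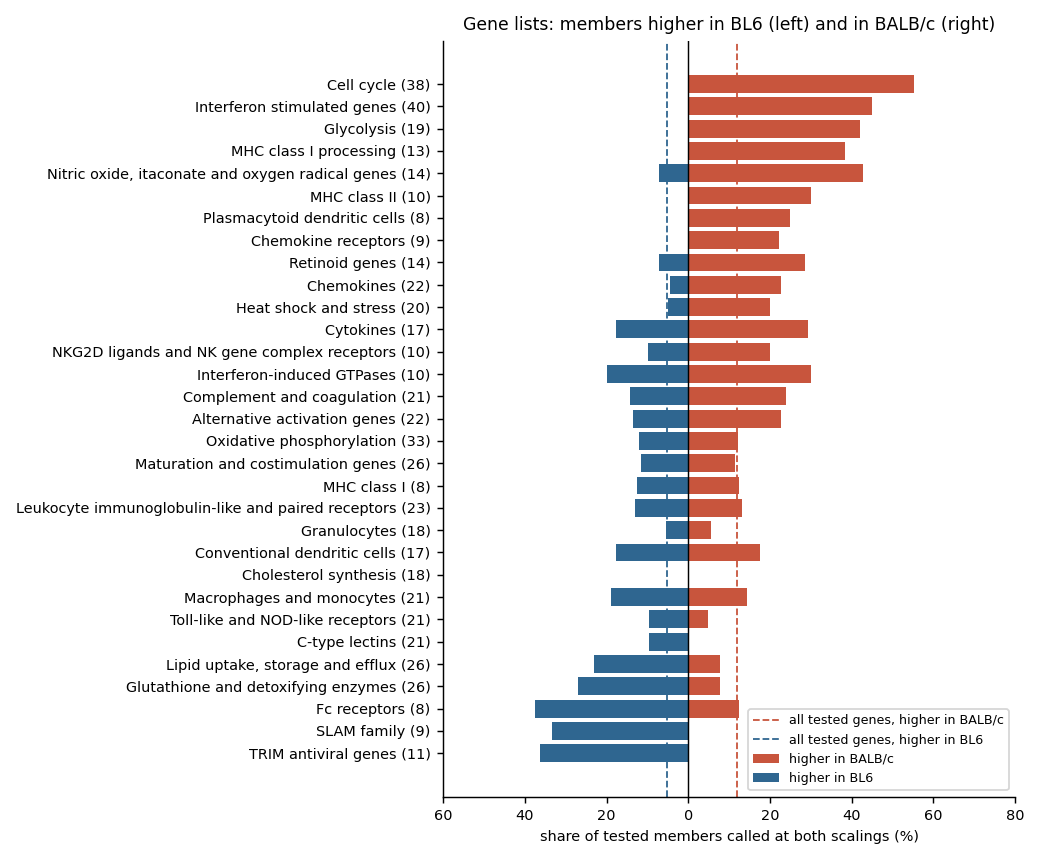
Share of the tested members of each list with at least 8 of them (number in brackets) called at both scalings, higher in BALB/c to the right and higher in BL6 to the left; dashed lines mark the shares of all tested genes, 11.9% and 5.22%. Cell cycle (21 of 38) and interferon stimulated genes (18 of 40) stood at the BALB/c end, and Fc receptors (3 of 8), TRIM genes (4 of 11) and SLAM receptors (3 of 9) at the BL6 end.

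Maturation and costimulation genes, which dendritic cells raise when activated, gave 3 of 26 members in each direction, against 11.9% (BALB/c) and 5.22% (BL6) of all tested genes. Marcksl1 read 5501, 2489 and 6839 in BALB/c and 1523, 868 and 3745 in BL6 (1.11 ± 0.18, 2.16-fold), and Cd40 279, 109 and 940.5 in BALB/c and 116, 65.5 and 551 in BL6 (0.55 ± 0.17). Cd200 (-1.25 ± 0.18) and Traf1 (-1.25 ± 0.23) were higher in BL6 and lost their calls without an RA array (adjusted p = 0.0551 to 0.0898), Samsn1 (-0.87 ± 0.16) without any single array with Ro or without retinoid (adjusted p up to 0.104), and Cd40 without either array that had no retinoid (0.0501 and 0.0509). Cd80 (-0.07), Cd83 (-0.39) and Cd86 (0.35) were not called at both scalings.

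Of the paired receptors of leukocytes, 3 of 23 were called in each direction, against 11.9% (BALB/c) and 5.22% (BL6) of all tested genes. Sirpb1a, a receptor of the signal regulatory protein family, read 263, 147 and 19.5 in BALB/c and 1494, 949 and 230.4 in BL6 (-2.89 ± 0.16, 7.43-fold higher in BL6, adjusted p = 6.27e-05 in limma). Within each pair BL6 was far above BALB/c, and both strains were lowest with Ro. Cd300ld read 120.3, 90.3 and 115 in BALB/c and 272, 305 and 272 in BL6 (-1.56 ± 0.17, 2.96-fold higher in BL6). Treml2 read 973, 1075 and 647 in BALB/c and 265, 432 and 219 in BL6 (1.24 ± 0.16, 2.36-fold higher in BALB/c), and Trem1, an amplifier of inflammation in myeloid cells, 349, 686 and 575 in BALB/c and 75.3, 96.2 and 296 in BL6 (1.56 ± 0.29, 2.95-fold higher in BALB/c).

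Marker lists of cell types described which cells the cultures could hold. Conventional dendritic cell markers gave 3 of 17 members in each direction (median 0.01, summed signal 22263, 15167 and 33556 in BALB/c and 24042, 17089.9 and 29548 in BL6). Dpp4 read 692, 466 and 1240.3 in BALB/c and 221, 122 and 508 in BL6 (1.25 ± 0.17, 2.39-fold higher in BALB/c) and Kmo 637, 731 and 1778 in BALB/c and 177, 149 and 1051 in BL6 (1.27 ± 0.25, 2.41-fold higher in BALB/c), and Irf4, a transcription factor of dendritic cells, 1492, 761 and 2315 in BALB/c and 748, 426 and 1780.4 in BL6 (0.43 ± 0.16, higher in BALB/c). Batf3, a transcription factor of cross-presenting dendritic cells (-1.26 ± 0.21), Id2 (-0.91 ± 0.16) and Naaa (-0.74 ± 0.12) were higher in BL6, but each lost its call without any single one of the arrays with RA or without retinoid (adjusted p from 0.05004 to 0.129). Zbtb46 (-0.43 ± 0.21) and Irf8 (-0.41 ± 0.11) were not called.

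All 3 tested markers of Langerhans type dendritic cells were higher in BALB/c (median 1.09). Cdh1, the adhesion molecule E-cadherin, read 453, 426 and 3159 in BALB/c and 32.8, 48 and 2377 in BL6 (1.86 ± 0.46, 3.63-fold), with a difference of 2.90, 2.43 and 0.25 in the 3 pairs. Il1r2, the decoy receptor of interleukin 1, gave 1.09 ± 0.35 and Epcam 0.72 ± 0.21. For Cdh1 and Il1r2 the Ro array was the highest in both strains and the strains lay closest there. At the deposited scaling all 3 lost their calls without an RA array (adjusted p = 0.073 to 0.134). At both scalings none was called without any single one of the arrays with RA or without retinoid.

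Macrophage markers had 4 of 21 members higher in BL6 and 3 in BALB/c (median -0.37), and their summed signal was 105947, 131886 and 77193 in BALB/c and 106095, 138061 and 85517 in BL6, with the strains overlapping. Mertk, a receptor for apoptotic cells, read 452, 417 and 129.6 in BALB/c and 1222, 1758 and 854 in BL6 (-2.30 ± 0.22, 4.92-fold higher in BL6), and Cd68 4524, 7494 and 2175 in BALB/c and 7163, 10057 and 3998 in BL6 (-0.95 ± 0.11, 1.93-fold higher in BL6). Adgre1, which encodes F4/80, was higher in BALB/c (0.45 ± 0.19). Leaving out each array in turn left 0 to 3 of these markers higher in BALB/c and 4 to 5 in BL6. Csf1r (-0.25 ± 0.07), Lyz2 (-0.36 ± 0.07) and Apoe (-0.07 ± 0.12) were not called. The part of macrophage number, for which no other measure was used, in the differences of Marco, Fabp4, Mertk and the Fc receptors was not tested.

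Granulocyte markers had medians of opposite sign in the 3 pairs. The median of 18 tested members was 0.23, 0.97 and -1.51 in the 3 pairs, and the summed signal was 34254, 79475 and 20495 in BALB/c and 27670.4, 40374 and 47578 in BL6. Mmp9, a secreted gelatinase, read 517, 6541 and 90 in BALB/c and 41.9, 305 and 13.1 in BL6 (2.85 ± 0.39, 7.19-fold higher in BALB/c), highest with RA in both strains. Ltf, a granule protein gene, read 921, 5493 and 604 in BALB/c and 319, 682 and 1149.8 in BL6 and Ngp 2746, 6878 and 2320.3 in BALB/c and 2526, 3584 and 8083 in BL6, with BALB/c above BL6 under RA and below it under Ro. At both scalings Mmp9 was higher in BALB/c and Anxa1 (-0.56 ± 0.08) in BL6, the latter lost without any single array with Ro or without retinoid (adjusted p up to 0.207), and 9 members were higher in BALB/c when either Ro array was left out.

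Eosinophil markers gave 3 of 7 members higher in BL6 and 1 in BALB/c (median -0.92). Prg2, the major basic protein of eosinophil granules, read 12.7, 14 and 128 in BALB/c and 209, 64.3 and 1427 in BL6 (-2.87 ± 0.33, higher in BL6), and Ear3, an eosinophil ribonuclease of a family with near-identical copies, read 1056, 497 and 158 in BALB/c and 6446, 3356 and 183 in BL6 (-2.13 ± 0.43, 4.37-fold higher in BL6). Ear3 was near equal in the Ro pair and lost its call without an RA array (adjusted p = 0.108 to 0.114), as Epx (-1.27 ± 0.27) did without a Ro array (0.0984 and 0.14). Alox15, described above, is the member higher in BALB/c. The summed signal of the list was 10547, 9237 and 2022 in BALB/c and 11497, 9792 and 2838 in BL6.

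Cpa3, a protease of mast cells, read 33.4, 14.8 and 81.9 in BALB/c and 178, 118 and 1624 in BL6 (-3.02 ± 0.37, higher in BL6), highest on the BL6 array with Ro. Only this 1 of 5 tested mast cell and basophil markers was called, and their median was 0.06 (0.27, 0.99 and -0.99 in the 3 pairs). A further 7 of the list, tryptase and chymase genes among them, were at background on all 6 arrays. Of the B cell markers 12, among them Cd79a, Ebf1 and Rag1, were at background, and the 2 tested ones were not called. Also at background were 9 T and NK cell markers, among them Cd3e and Ncr1, and 8 erythroid ones, among them Alas2 and Klf1. Of 3 tested T and NK cell markers, Lat was higher in BL6. It lost its call without any single one of the 6 arrays (adjusted p from 0.0762 to 0.128 in limma). In the megakaryocyte list 1 of 6 tested members was higher in BL6 and none in BALB/c, where 2 were higher at the deposited scaling only. That member, Vwf, read 495, 354 and 219 in BALB/c and 1068, 1123 and 332 in BL6 (-1.39 ± 0.21, 2.61-fold higher in BL6). Vwf lost its call without an RA array (adjusted p = 0.0531 to 0.0589). Pecam1, an adhesion molecule of endothelial cells and leukocytes, read 97.3, 204 and 179 in BALB/c and 5.28, 11.1 and 46.2 in BL6 (2.07 ± 0.27, higher in BALB/c without overlap), while Col3a1, Pdgfra and Cdh5 of the stromal list were at background.

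Probe sets of the same gene share its RNA but not their probes, so the other probe sets of each gene with a call were read beside it. Probe sets called at both scalings with a difference over 2 and higher in BALB/c had 85 other tested probe sets of the same genes, of which 60% were called in the same direction and 25.9% had the opposite sign. For those higher in BL6 there were 106 others, of which 37.7% were called in the same direction and 25.5% had the opposite sign. Among all 14113 tested probe sets of genes with several, 13.6% were called higher in BALB/c and 4.15% higher in BL6, and 46.2% had a difference below 0. In 83 genes, 1 called probe set differed by over 2 from another or was opposed by one, and in 35 of these probe sets were called in opposite directions.

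H2-D1, a classical class I gene that differs between MHC haplotypes, was the widest case, with 8 tested probe sets. Its brightest read 9115, 8945 and 9072 in BALB/c and 9060.1, 9717 and 8799.5 in BL6 (-0.32 ± 0.08, adjusted p = 0.84 in limma). A further 3 read far apart, for example 6429.6, 5915 and 5555 in BALB/c and 16.4, 13.8 and 16.6 in BL6 (7.27 ± 0.15), with 6.59 and 7.60 for the other two. The remaining 4 probe sets lay between -0.56 and 0.12 without a call. By 5 probe sets of H2-D1, then, no strain difference was called, and by 3 the signal was present in BALB/c and at or near background in BL6.

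Pdxdc1, which is among the 12 largest differences higher in BALB/c, had a further probe set with 20.7, 31.8 and 32.1 in BALB/c and 280.2, 279.8 and 337 in BL6 (-3.13 ± 0.17, called higher in BL6), 1 more called higher in BL6 (-2.11) and 1 not called (-0.48). Rps9, a ribosomal protein gene, gave -0.19 and -0.17 by 2 probe sets and -4.46 ± 0.14 by the third, which read 184, 156 and 174 in BALB/c and 3844, 3038 and 3235 in BL6. Snx6, a sorting nexin, gave -4.49 ± 0.28 by 1 probe set and -0.60 to -0.29 by the other 3. Casp9, an initiator caspase, gave 4.02 ± 0.18 by 1, 1.29 by another and -0.05 by its brightest. In these genes the direction or the size of the strain difference depends on the probe set. Probe sequences were not used here, so how far allelic differences under a probe enter these values was not tested.

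**Figure D4:**
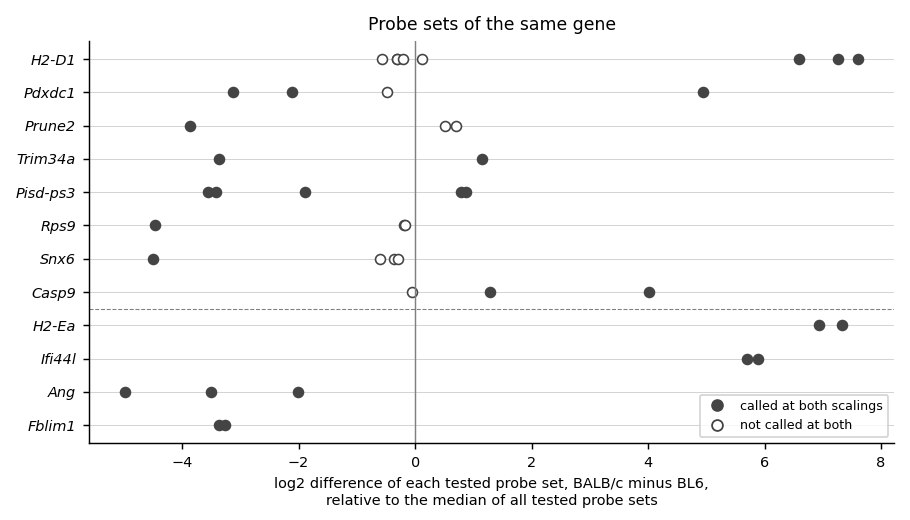
Log2 difference of each tested probe set of a gene, BALB/c minus BL6, relative to the median of all tested probe sets; filled circles were called at both scalings. The 8 genes above the dashed line are those with the widest gaps between their probe sets, led by H2-D1 with 3 probe sets between 6.59 and 7.60 and 5 between -0.56 and 0.12, and the 4 below it had all probe sets in 1 direction.

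Probe sets without a single gene name held larger differences still. The largest, with no gene in the annotation, read 1.44, 2.67 and 0.806 in BALB/c and 8741, 11263 and 1910.3 in BL6 (-8.64 ± 0.41), and a second one read 3.46, 1.88 and 11.9 in BALB/c and 8690.1, 10145 and 2566 in BL6 (-8.46 ± 0.43). Both were at background on all BALB/c arrays. A probe set annotated to Ifi202b together with a second locus read 2931, 3397 and 938 in BALB/c and 0.259, 1.42 and 4.53 in BL6 (6.59 ± 0.37), beside 6.54 for the probe set of Ifi202b alone. These 3 were picked by their size after their values were seen.

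By position in GRCm38.p6, the share of tested genes higher in BALB/c at both scalings lay between 6.88% and 15.1% per chromosome and that higher in BL6 between 2.31% and 7.44%. In the stretch of chromosome 17 from Tapbp to H2-M3, which spans the MHC, 20 of 95 tested genes were higher in BALB/c and 2 in BL6 (23.2% called). H2-Ea, Msh5, Ltb, H2-T24, H2-Ob and Tap2 lie there, and Ppt2 and Abhd16a were the genes higher in BL6. Beyond it, runs of neighbouring tested genes over 1 in the same direction were Trim34a, Trim5 and Trim12a on chromosome 7 and Ccdc122, Dnajc15 and Epsti1 on chromosome 14 (differences of -1.28, -1.85 and -1.76). On chromosome 19 they were AW112010, Ms4a8a and Ms4a7 (-1.26, -2.79 and -1.83). Higher in BALB/c was the run of Lca5, Ttk, Bckdhb and Tent5a on chromosome 9 (1.02, 1.36, 1.40 and 1.10).

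The 6 arrays with LPS were not used for the calls. They carry the same probes and the same numbering of strains, and the labels do not say whether their cells came from other animals. The same sign there therefore cannot tell an RNA difference from a probe effect or from a batch that follows the strain. Of probe sets called at both scalings with a difference over 2, 97 of 98 higher in BALB/c and 130 of 133 higher in BL6 had the same sign on those arrays, against 50% of all tested probe sets. The same direction in all 3 LPS pairs was found for 82 and 116 of them, against 22.6% and 22.4% of all tested, and 73 and 105 were called there, against 2.58% and 2.65%. H2-Ea read 9989, 9724 and 10769 in BALB/c and 25.3, 27.4 and 43.6 in BL6 with LPS (7.74), Ifi202b 6009, 3813 and 2773 in BALB/c and 8.23, 2.72 and 0.802 in BL6 (7.67) and Trim12a 5.27, 11.3 and 4.90 in BALB/c and 683, 879 and 833 in BL6 (-5.14). These 3 genes kept the strains fully apart in both sets of arrays.

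For 118 probe sets the strain difference changed with LPS in the interaction test over all 12 arrays (0.512% of those tested), and for 43 after quantile normalization (0.187%). Genes named above whose difference shrank with LPS included Ctse, from 4.41 to 2.07 (interaction -2.36, adjusted p = 0.0145 in limma), and Oasl1, from 1.86 to 0.01. Msh5, at 3.62 without LPS, and Ccr6, at 2.52, were at background on all 6 LPS arrays, so that their differences there (0.66 and 0.06) carry no strain comparison. With LPS, Irf7 read 10708, 7628 and 6601 in BALB/c and 8119, 7304 and 6969.8 in BL6 and Il1b differed by -0.07, so that the strains lay close. Mndal turned from 0.69 to -1.25 and Treml2 from 1.24 to -1.16. Of these, Irf7 and Ccr6 did not pass after quantile normalization (adjusted p = 0.0535 and 0.0504).

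**Figure D5:**
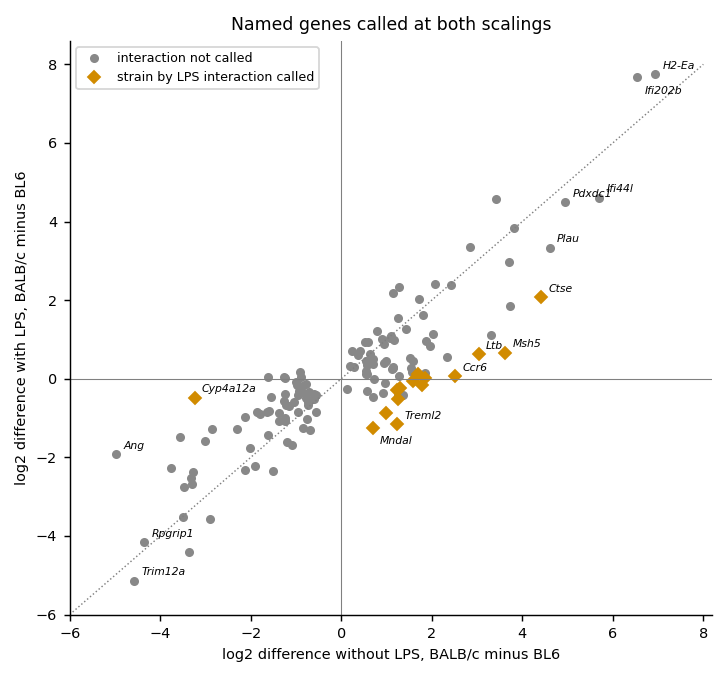
Log2 difference, BALB/c minus BL6, of the named genes called at both scalings, without LPS (horizontal) and with LPS (vertical), each relative to the median of all tested probe sets; diamonds mark genes with a called interaction of strain and LPS, and the dotted line marks equal differences. H2-Ea (6.94 and 7.74) and Trim12a (-4.57 and -5.14) lay near the dotted line, while Msh5 (3.62 and 0.66) and Ccr6 (2.52 and 0.06) lay near the horizontal axis and were at background on all LPS arrays.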

How the data were processed

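Total RNA of each culture was hybridised to 1 single-colour Affymetrix array. The authors deposited signal intensities per probe set, made with MAS5, per the submitters' processing notes; detection calls were not used here. Of 45101 probe sets, 34945 had 1 gene symbol, 932 several, 9160 none and 64 were controls. A constant of 16 was added before taking log2. The test covered 23053 probe sets, of 10724 genes, that exceeded the array median on 3 or more of 6 arrays. BALB/c and BL6 were compared with limma 3.58.1 in R 4.3.3 with retinoid condition as a block and an intensity trend, which left 2 residual degrees of freedom beside 6.05 from the prior, and p-values were adjusted by Benjamini-Hochberg over all tested probe sets. With 3 arrays against 3 and the pairing ignored, the smallest exact 2-sided permutation p is 0.1. Exchange within the 3 pairs allows fewer arrangements, so its smallest p is larger. Change with LPS was tested as an interaction over all 12 arrays. Python 3.11.15 (with matplotlib 3.10.9, pandas 2.3.3 and numpy 2.4.6) wrote tables and plots, and the fit was tested on simulated data.

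The genes named are, first, the 12 of largest difference in each direction among genes called at the deposited scaling. These also had the same sign in all 3 retinoid conditions and a mean above 41.8 in the higher strain. Up to 5 members per list were added by size, for which only a call at the deposited scaling was required. Lists without such a call gave up to 2 members by mean value. All tested MHC class II and sex-linked genes were added, with up to 8 genes whose probe sets disagree by the widest gap. Any other list member was named after its values were seen, to describe its list. The members and the lists were chosen with earlier results of these data known. Nothing in the labels says that cultures came from separate animals, so the p-values reflect only the spread among these 6 arrays, which may be technical. After the block, that spread is how the strain difference varied over the 3 retinoid conditions. With 1 array per strain and condition, any change of the strain difference with the retinoid is part of it. The deposit numbers BALB/c samples 1 and BL6 samples 2 throughout, so a batch that follows this number and the strain cannot be told apart. Signals carry no counts, so the number of arrays limits the precision. Alternatives were other scalings, added constants, filters, fits without the trend or the block, a fit over all 12 arrays, and leaving out each array in turn, which leaves its partner in the same retinoid condition without weight in the difference. Leaving out arrays at both scalings was chosen after seeing the data. Promoters are from RefSeq; probe sequences and a BALB/c genome were not used here.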

Additional observations from a re-analysis of the deposited data

Results flagged for a closer look

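The strain difference without LPS was set against that with LPS, and the interaction of strain and LPS passed the threshold in limma for 15 of the named genes. Values are interactions on the log2 scale, a negative one meaning that BALB/c lost ground against BL6 with LPS, with Benjamini-Hochberg adjusted p-values over all tested probe sets.

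Among the genes of largest difference, the interaction was -2.36 for Ctse (adjusted p = 0.0145), -2.98 for Msh5 (0.00216) and 2.74 for Cyp4a12a (0.033). Msh5 and Cyp4a12a were at background on all 6 LPS arrays, and Ctse read 218, 288 and 139.9 in BALB/c and 27, 39.2 and 47.3 in BL6 there. For genes of the interferon-related and MHC lists it was -1.55 for H2-T24 (0.0253), -1.95 for Mndal (0.00475), -1.86 for Oasl1 (0.0105), -1.59 for Irf7 (0.0154) and -1.78 for Usp18 (0.033). Of these, H2-T24, Mndal and Usp18 had a difference below 0 with LPS (-0.30, -1.25 and -0.51).

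Among cytokine, chemokine and chemokine receptor genes, the interaction was -2.43 for Ltb (0.0411), -1.67 for Il1b (0.00961), -1.55 for Il1rn (0.0145), -1.97 for Cxcl3 (0.0482) and -2.48 for Ccr6 (0.00961), which was at background on all 6 LPS arrays. Ltb read 92.7, 67.8 and 102 in BALB/c and 25.7, 37.4 and 117 in BL6 there. It was -1.86 for the glucose transporter gene Slc2a6 (0.00961) and -2.41 for Treml2 (0.0154). After quantile normalization Cyp4a12a, H2-T24, Irf7, Usp18, Ltb, Cxcl3 and Ccr6 no longer passed, with adjusted p = 0.0511, 0.0504, 0.0535, 0.0675, 0.0535, 0.122 and 0.0504. The cause of the changes was not tested.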

How the results depend on the processing

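No direction reversed for any of the 171 named calls made at the deposited scaling. Of these, 43 were kept in every setting in which they were tested and 128 were lost in at least one. Without the block for retinoid condition, that is with the pairing ignored (no replicate block), the counts were 1183 probe sets and 421 genes, 351 higher in BALB/c and 70 in BL6, in place of 7829, 3842, 3276 and 566. With all 12 arrays in 1 fit they were 4581, 2137, 1808 and 329. Quantile normalization gave 1285 genes higher in BALB/c and 1432 in BL6, median scaling 1374 and 1473, and no filter 2481 genes, 2141 and 340. The interaction of strain and LPS went from 118 probe sets to 43 after quantile normalization and 253 with an added constant of 64, while 3779 had an unadjusted p under 0.05.

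With each array left out in turn, probe sets called ranged from 2811 to 9225 and genes from 1283 to 4670, 983 to 4138 of them higher in BALB/c and 293 to 532 in BL6. At both scalings, 356 to 1308 genes were higher in BALB/c and 290 to 532 in BL6. The arrays without retinoid left 4522 (BALB/c) or 4588 (BL6) probe sets, and the RA arrays 2834 or 2811. Of the named calls, the RA arrays ended 60 or 61, the arrays without retinoid 39 or 37 and the Ro arrays 13 each. The fit without the block ended 126, no filter 39, all 12 arrays 38, quantile normalization 29, median scaling 28, no intensity trend 26, a constant of 1 ended 4 and one of 64 ended 1. Of 130 named calls above the array median on all 6 arrays none was lost in that stricter filter, which did not test the other named calls. The causes were not tested. For genes listed without a fold, the size of the difference depends on the added 16. No fit with the deposit's replicate number as a block was possible, because that number is the strain.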

Other observations

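Plasmacytoid dendritic cell genes were tested as well, of which 2 of 8 were higher in BALB/c and none in BL6. Pacsin1, an adaptor of endocytosis, read 194, 71 and 324 in BALB/c and 44.9, 34.8 and 84.6 in BL6 (1.15 ± 0.23), and Klk1, a kallikrein, read 170.2, 194 and 124 in BALB/c and 77.1, 60 and 83.5 in BL6 (0.70 ± 0.21). Klk1 lost its call without an RA array (adjusted p = 0.0834 to 0.0857 in limma). Tcf4, a transcription factor of that lineage, read 389, 426 and 920.0 in BALB/c and 409, 594 and 520.4 in BL6 and was not called at both scalings.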
